A study of Mus musculus with 2 samples.

Results

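Of the genes measured in B16F10 cells, the amino acid transporters of the solute carrier (SLC) families 1, 3, 7, 36, 38 and 43 were compared between cells expressing NRF3 and cells expressing GFP. They were chosen by gene symbol, as the genes of these families in the array's annotation with Slc7a11 left out, a choice made with earlier results of these data known. This left 41 of 19505 named genes, each read by 1 probe set. B16F10 is a mouse melanoma line. Its cells had been transfected with a plasmid that expresses Nrf3 or GFP plus a puromycin resistance vector, and stable cells were kept by puromycin selection. Both populations were then treated with forskolin, which activates adenylate cyclase, for 5 days, so forskolin is common to both groups and its own effect is not measured. The labels do not say whether the stable cells were 1 clone or a mixed population, nor which promoter drove the plasmids. Total RNA was measured on 2 arrays, 1 per group. With 1 array per group there is no replicate, and no difference has an error or a p-value: each compares these 2 RNA samples.

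Amino acids do not cross membranes unaided, and each SLC family moves them in its own way. SLC1 proteins couple transport to sodium and either take up glutamate or exchange small neutral amino acids. SLC7 light chains are exchangers that reach the cell surface only when bound to an SLC3 heavy chain, and other SLC7 proteins carry arginine and lysine alone. SLC38 proteins are mostly sodium-coupled carriers of glutamine and alanine. Some SLC36 proteins move small amino acids with protons, and SLC43 proteins carry large neutral amino acids by facilitated diffusion. Some of these proteins work in the lysosome, where amino acid supply is reported to the growth kinase complex mTORC1. In tumour cells the transporters of glutamine and leucine are known for feeding growth, and in pigment cells cystine and tyrosine supply also bears on melanin. NRF3 is the cap'n'collar transcription factor that the gene Nfe2l3 encodes.

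The values are log2 expression values on the deposited scale, and every difference is NRF3 minus GFP on that scale. The label was checked on Nfe2l3, at 6.04 in the GFP sample and 10.1 in the NRF3 sample. Of 10 melanocyte markers, 10 lay above the upper quartile of the control rows named neg on both arrays, where that quartile was 7.52 for GFP and 7.85 for NRF3. These rows serve as a yardstick of dim signal, although a few are bright and they are no strict blank. Markers of leukocytes, fibroblasts, endothelium and epithelium, 22 in all, did not reach the floor of 5.89 described next, and their values lay between 2.90 and 5.67. The median difference of all 9741 genes above the floor was -0.08, with quartiles of -0.54 and 0.37.

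The transporter genes were first divided by signal. A gene was kept when its mean over both arrays was at least 5.89, the median of all values that carry a gene name. This cut-off, called the floor here, does not measure background. It was met by 18 of the 41 transporter genes: 3 of 7 in SLC1, 1 of 2 in SLC3, 5 of 14 in SLC7, 2 of 4 in SLC36, 6 of 11 in SLC38 and 1 of 3 in SLC43. For 16 of the 18, both values also exceeded the upper quartile of the neg rows. The exceptions were Slc1a7 and Slc7a8. The other 23 genes lay between 3.02 and 5.82 on the GFP array and between 2.75 and 5.35 on the NRF3 array, below the medians of the neg rows, 6.12 and 6.37. They were Slc1a1, Slc1a2, Slc1a3, Slc1a6, Slc3a1, Slc7a2, Slc7a3, Slc7a4, Slc7a9, Slc7a10, Slc7a12, Slc7a13, Slc7a14, Slc7a15, Slc36a2, Slc36a3, Slc38a3, Slc38a4, Slc38a5, Slc38a8, Slc38a11, Slc43a1 and Slc43a3. Among them are the glial glutamate carriers Slc1a2 and Slc1a3, the kidney pair Slc3a1 and Slc7a9, and Slc43a3, which is known as a carrier of purine bases. Their differences, from -1.54 to 1.16, cannot be told from background and are not read further.

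**Figure D1:**
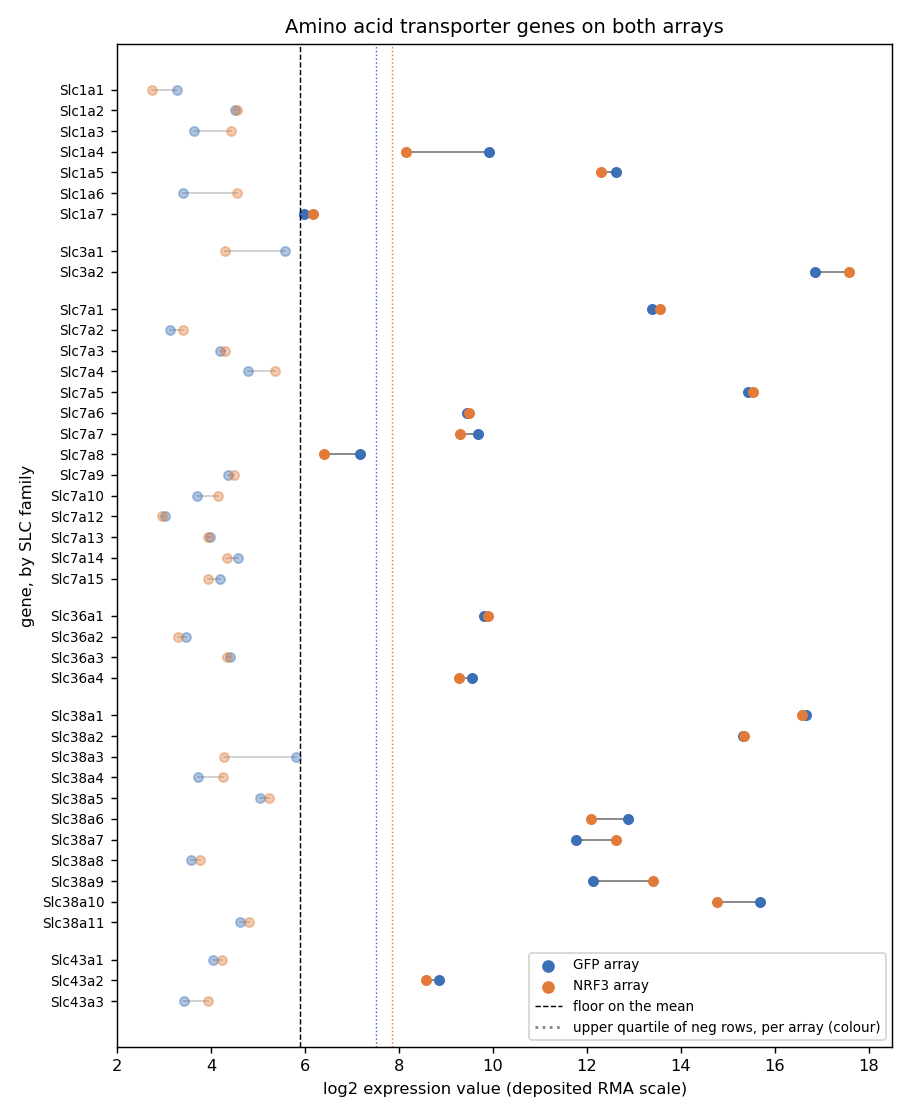
Log2 expression values of the 41 transporter genes (rows, by family) on the GFP array (blue) and the NRF3 array (orange), 1 array each. The dashed line is the floor of 5.89 on the mean of the values, the dotted lines are the upper quartiles of the neg control rows, 7.52 (blue, GFP) and 7.85 (orange, NRF3), and the 23 pale genes lie below the floor.

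Of the 18 genes above the floor, 3 were at least 1.5-fold higher on the NRF3 array, 4 were at least 1.5-fold lower and 11 lay within that range. The higher genes were Slc38a9, Slc38a7 and Slc3a2, and the lower ones Slc1a4, Slc38a10, Slc38a6 and Slc7a8. Among all genes above the floor the same size rule, which is not a test, was met upward by 16.1% and downward by 23.2%, together 39.3%. The transporters' shares were 16.7% and 22.2%, together 38.9%, and so near the background that the counts are not a result about these genes. At 2-fold, 1 transporter was higher, Slc38a9, and 1 lower, Slc1a4, against 6.35% and 10.7% of all genes, together 17.0%. The median difference of the 18 genes was -0.03, with quartiles of -0.36 and 0.16, and 9 genes lay on each side of 0. The values below are therefore given gene by gene.

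**Figure D2:**
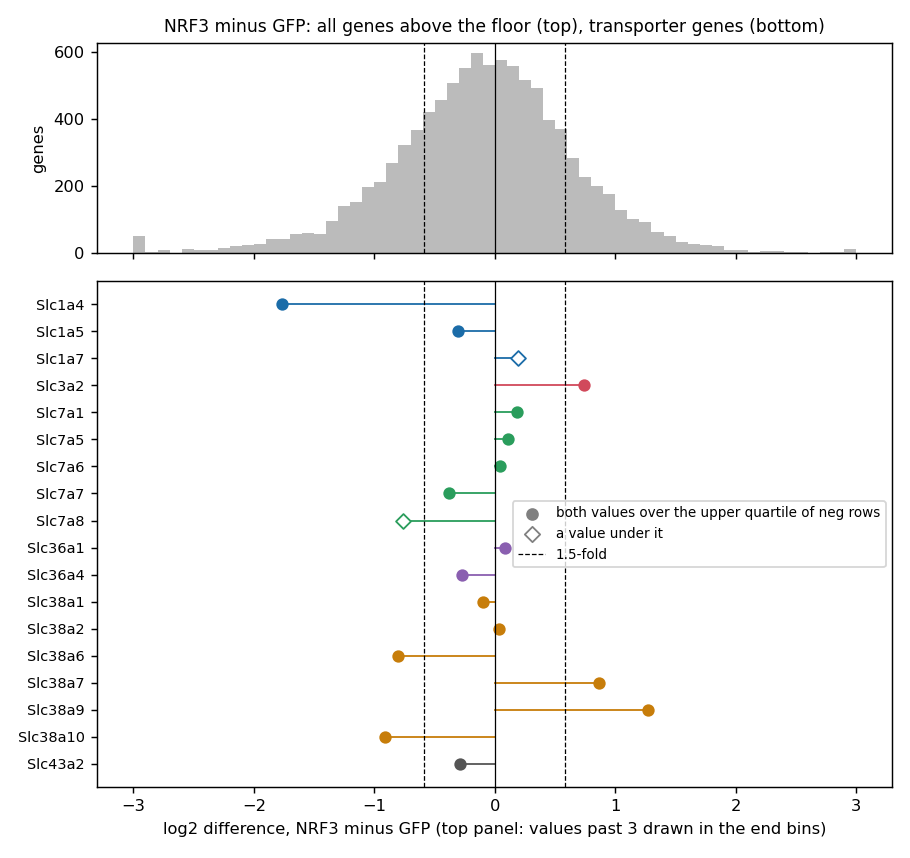
Distribution of the log2 difference, NRF3 minus GFP, of the 9741 genes above the floor (top, number of genes per bin) and the difference of each of the 18 transporter genes above it (bottom, coloured by family, 1 array per group). Dashed lines mark 1.5-fold. Slc38a9 at 1.27 and Slc1a4 at -1.77 lie farthest to each side, and the open symbols, Slc1a7 and Slc7a8, have a value under the upper quartile of the neg rows.

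The promoters of the gene with the highest difference, Slc38a9, of the one with the lowest, Slc1a4, and of the heavy chain gene Slc3a2 are shown because the differences below turn on these genes. Each is the window from 250 bases before to 50 bases after an annotated start in the RefSeq table (build GRCm38.p6), printed 5′ to 3′ on the gene's strand. The starts of Slc3a2 and Slc38a9 lie inside the annotated span of the gene, so they are not the gene's outermost start. Capitals mark matches to any of 4 motifs searched on both strands. These were TGACNNNGC, the core of the antioxidant response element bound by cap'n'collar factors with small MAF proteins, TGATGNAAN, the core of the element bound by ATF4 with CEBP proteins when amino acids are scarce, TGACGTCA, the cAMP response element, and CACGTG, the E-box read by MITF and MYC. The last 2 read the same on both strands.
Slc3a2, chr19:8713848-8714147, minus strand: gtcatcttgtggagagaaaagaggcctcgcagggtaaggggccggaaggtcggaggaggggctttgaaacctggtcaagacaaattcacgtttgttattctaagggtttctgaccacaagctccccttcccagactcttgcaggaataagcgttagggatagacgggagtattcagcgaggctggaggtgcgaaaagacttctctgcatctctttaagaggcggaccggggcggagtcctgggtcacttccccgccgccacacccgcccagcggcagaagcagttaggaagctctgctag
Slc38a9, chr13:112660516-112660815, plus strand: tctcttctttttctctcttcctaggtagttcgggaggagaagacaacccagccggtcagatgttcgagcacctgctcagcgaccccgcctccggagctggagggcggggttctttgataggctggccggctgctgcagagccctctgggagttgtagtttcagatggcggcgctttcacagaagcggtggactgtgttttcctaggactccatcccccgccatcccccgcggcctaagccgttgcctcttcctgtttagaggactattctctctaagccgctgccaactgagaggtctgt
Slc1a4, chr11:20332664-20332963, minus strand: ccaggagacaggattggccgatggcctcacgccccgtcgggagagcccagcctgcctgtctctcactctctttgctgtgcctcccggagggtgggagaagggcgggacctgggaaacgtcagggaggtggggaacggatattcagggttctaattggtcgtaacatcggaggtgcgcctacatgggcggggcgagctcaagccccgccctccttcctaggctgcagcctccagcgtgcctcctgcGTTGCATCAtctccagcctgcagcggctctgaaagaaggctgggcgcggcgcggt
The Slc1a4 window held 1 match, GTTGCATCA, the ATF4 and CEBP core read on the opposite strand, and these letters are not in the Slc3a2 and Slc38a9 windows, nor are those of the other motifs.

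The table held 22 such windows for 15 of the 18 genes, and Slc1a5, Slc7a5 and Slc38a1 were not matched. The antioxidant core was found in 5 of the 22 windows, from Slc36a1, Slc38a2, Slc7a1 and Slc7a6, and in 12.4% of all 32851 windows. The ATF4 and CEBP core was found in 3, from Slc1a4 and Slc7a7, against 3.95% of all windows. Windows of the same gene can overlap. The antioxidant site of Slc7a6 and an ATF4 and CEBP site of Slc7a7 were each counted in more than 1 window. The cAMP response element was found in 1, that of Slc38a6, where 1.79% of all windows hold it, and the E-box in 3, those of Slc1a7, Slc36a1 and Slc38a7, where 7.15% do. The Slc36a1 window held E-boxes at positions -31 and -3 from the start, and the one at -3 overlaps the antioxidant match. The 4 genes with the antioxidant core differed by between 0.04 and 0.18 on the arrays. Slc1a4 and Slc7a7 differed by -1.77 and -0.38. Slc38a6, with the cAMP response element, differed by -0.80. The E-box genes Slc1a7, Slc36a1 and Slc38a7 differed by 0.19, 0.09 and 0.86. A match describes the letters only and is neither a bound site nor a cause. The median GC content was 60.8% in the 22 windows and 52.7% in all windows.

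The heavy chain and its partners did not move as a block. Slc3a2 encodes the CD98 heavy chain (4F2hc), which carries several SLC7 light chains to the plasma membrane. Slc3a2 had a log2 value of 16.8 in the GFP sample and 17.6 in the NRF3 sample, so it was 1.67-fold higher in the NRF3 sample, a difference of 0.74. Slc7a5 encodes LAT1, the light chain that takes up leucine and other large neutral amino acids. It lay at 15.4 in GFP and 15.5 in NRF3 cells, which is 0.11 apart. Slc7a6, which encodes the arginine and glutamine exchanger y+LAT2, lay at 9.44 and 9.48, a difference of 0.04. Both light chain values were thus nearly level between the arrays while the heavy chain was higher.

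The remaining light chains lay on the other side. Slc7a7, which encodes y+LAT1, the exchanger defective in lysinuric protein intolerance, lay at 9.67 in GFP and 9.30 in NRF3 cells, a difference of -0.38. Slc7a8, which encodes LAT2, lay at 7.16 and 6.40, a difference of -0.76 or 1.70-fold. Both values of Slc7a8 were under the upper quartiles of the neg rows, so how large its difference is depends on background. Of the 4 light chain genes above the floor, 0 were at least 1.5-fold higher and 1 was lower. Slc7a11, the cystine and glutamate exchanger that also uses the CD98 heavy chain and lies outside the set, was at 11.1 and 13.9, a difference of 2.85. Of the partners of the heavy chain above the floor it was the one that stood higher by at least 1.5-fold with it. Slc7a1 encodes CAT1, the arginine and lysine carrier that needs no heavy chain. It lay at 13.4 and 13.6, a difference of 0.18, and was the single cationic carrier of SLC7 above the floor, of 5.

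The pair of neutral exchangers in SLC1 differed in size. Slc1a4 encodes ASCT1, which exchanges alanine, serine and cysteine. Its value was 9.91 in GFP and 8.14 in NRF3 cells, 3.40-fold lower, a difference of -1.77. The NRF3 value lay only a little above the upper quartile of the neg rows there, 7.85. Of all genes above the floor, 2.56% had a lower difference. Slc1a5 encodes ASCT2, the exchanger known for glutamine uptake in tumour cells, and lay at 12.6 and 12.3, a difference of -0.31. Of the glutamate carriers, Slc1a7 alone passed the floor. Its values of 5.98 and 6.17 were under the medians of the neg rows, 6.12 and 6.37, so neither can be told from background.

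SLC38 held genes at both ends. Slc38a9 encodes a lysosomal membrane protein that senses arginine and passes the signal to the Ragulator and Rag proteins. Its value was 12.1 in GFP and 13.4 in NRF3 cells, 2.42-fold higher, a difference of 1.27. Of all genes above the floor, 96.8% had a lower difference. Slc38a7, which encodes SNAT7, an exporter of glutamine and asparagine from the lysosome, was at 11.8 and 12.6, 1.82-fold higher, a difference of 0.86. The system A carriers, which take up small neutral amino acids at the cell surface, were nearly level. Slc38a1 (SNAT1) lay at 16.7 and 16.6, a difference of -0.09, and Slc38a2 (SNAT2), a gene known to respond to amino acid lack, at 15.3 on both arrays, a difference of 0.04. The sign of the Slc38a1 difference depended on the scaling, at 0.01 after median centring. Slc38a10 and Slc38a6, whose substrates are less well described, were lower. Slc38a10 lay at 15.7 and 14.8, 1.88-fold lower, and Slc38a6 at 12.9 and 12.1, 1.75-fold lower, with differences of -0.91 and -0.80. The 6 SLC38 genes thus split into 2 higher, 2 lower and 2 within 1.5-fold, with a family median of -0.03. Their shares were 33.3% each way, beside 16.1% higher and 23.2% lower among all genes. With 6 genes nothing particular to the family is read from them.

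The SLC36 and SLC43 genes above the floor stayed within 1.5-fold. Slc36a1 encodes PAT1, found at the plasma membrane and on lysosomes, and lay at 9.81 in GFP and 9.90 in NRF3 cells, a difference of 0.09. Slc36a4, which encodes PAT4, lay at 9.55 and 9.28, a difference of -0.27. Slc43a2, which encodes LAT4, an exit route for branched-chain amino acids, lay at 8.86 and 8.57, a difference of -0.29. None of these 3 genes reached the size rule in either direction.

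The position of the genes on the chromosomes moved with some of these values. The 528 genes above the floor on chromosome 8 had a median difference of 0.56, and the 9213 genes elsewhere had a median of -0.11. On chromosome 8, 253 genes (47.9%) were at least 1.5-fold higher and 45 (8.52%) at least 1.5-fold lower. Elsewhere the shares were 14.2% and 24.1%. Of the 18 transporter genes, 3 lie on chromosome 8: Slc38a7, Slc7a5 and Slc7a6. For each gene the median difference of up to 25 measured neighbours on each side was taken. Slc38a7, at 0.86, had neighbours with a median of 0.55, and with it subtracted the difference was 0.32, inside the 1.5-fold range. Slc7a5, at 0.11, and Slc7a6, at 0.04, had neighbours at 0.64 and 1.004, so they lay 0.53 and 0.97 below them. Both were nearly level where the median neighbour was higher.

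Off chromosome 8 the neighbours were nearer to 0. Slc3a2 had neighbours with a median of -0.32 and lay 1.06 above them. Slc38a9 and Slc1a4 had neighbours at 0.24 and -0.07, and with these subtracted their differences were 1.04 and -1.70. Slc38a6, with neighbours at -0.03, kept a difference of -0.77. Slc38a10 and Slc7a8 had neighbours at -0.43 and -0.24, and their differences became -0.48 and -0.53, inside the 1.5-fold range. Whether the neighbourhood has a part in any of these values was not tested.

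**Figure D3:**
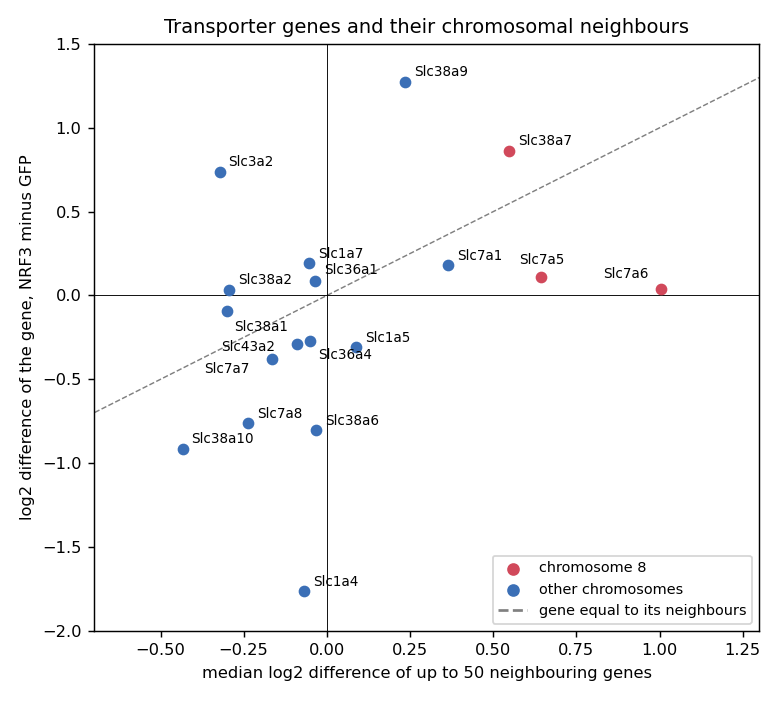
Log2 difference, NRF3 minus GFP, of the 18 transporter genes above the floor (y axis) against the median log2 difference of up to 50 neighbouring measured genes (x axis), 1 array per group, with genes on chromosome 8 in red. On the dashed line a gene would equal its neighbours: Slc7a6 (0.04 against 1.004) lies farthest below it on chromosome 8, and Slc3a2 (0.74 against -0.32) and Slc38a9 (1.27 against 0.24) lie above it.

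Other genes of amino acid supply were taken from 5 lists and read with the same size rule, which 16.1% of all genes met upward and 23.2% downward, together 39.3%. The shares describe these genes, and nothing particular to a list is read from them. The list of other membrane carriers of amino acids and peptides had 6 of 16 named members above the floor, with 1 (16.7%) higher and 3 (50%) lower and a median of -0.77, beside -0.08 for all genes. Slc15a4, a peptide and histidine carrier of lysosomes, was higher by 1.20, from 11.4 to 12.6. Slc6a20b, at 0.36, had values of 6.01 and 6.37, which cannot be told from background. Slc6a15, a carrier of branched-chain amino acids and proline, differed by -2.15, from 8.72 to 6.57, and Slc6a17, a neutral amino acid carrier of synaptic vesicles, by -1.47, from 13.1 to 11.7. The NRF3 value of Slc6a15 lay under the upper quartile of the neg rows, so its fold may be set in part by background. The other lower member, outside the naming rule and given to complete the count, was the taurine carrier gene Slc6a6, at -1.45, from 14.2 to 12.7.

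The mitochondrial and vesicular carriers had 8 of 16 named members above the floor, with 4 (50%) higher and 1 (12.5%) lower and a median of 0.51. The 4 higher include Slc25a15, a mitochondrial ornithine carrier on chromosome 8, whose values of 6.45 and 7.05 lay under the upper quartiles of the neg rows. Slc25a44, the mitochondrial carrier of branched-chain amino acids, was higher by 1.10, from 9.39 to 10.5. Ctns, which encodes cystinosin, the lysosomal exporter of cystine, was higher by 0.99, from 13.2 to 14.2. The lower one was Mfsd12, a cysteine importer of melanosomes and lysosomes, at -2.14, from 7.85 to 5.70, an NRF3 value under the floor. Slc25a13, the aspartate and glutamate carrier citrin, differed by -0.43, from 12.3 to 11.8.

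Amino acid sensing at the lysosome, the machinery that Slc38a9 reports to, had 34 of 35 named members above the floor, all but Mios. The size rule was met upward by 9 (26.5%) and downward by 7 (20.6%), with a median of 0.09. The higher genes include Kptn, whose values of 5.80 and 6.59 lay under the upper quartiles of the neg rows. Wdr59, also higher, lies on chromosome 8. The lower genes include Mlst8 and Sesn1, whose NRF3 values of 7.58 and 7.37 lay under that array's quartile. Lamtor1, the membrane anchor of Ragulator, was higher by 1.32, from 8.86 to 10.2, and Flcn, the folliculin gene that acts on the Rag proteins, by 1.17, from 11.1 to 12.3. Castor1, the cytosolic arginine sensor, differed by -1.69, from 9.46 to 7.77, the second value just under the upper quartile of the neg rows. Rragd, one of the Rag proteins, differed by -1.27, from 11.2 to 9.93. Members of this machinery thus lay on both sides, the arginine sensors Slc38a9 and Castor1 among them.

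The genes of amino acid synthesis and of the response to amino acid lack had 21 of 22 named members above the floor, with 3 (14.3%) higher and 4 (19.0%) lower and a median of -0.11. Vldlr, a lipoprotein receptor gene and target of ATF4, was highest, at 1.91, but its GFP value of 5.94 lay within background. Psph, the last enzyme of serine synthesis, was higher by 1.24, from 12.9 to 14.2. Ddit3, which encodes CHOP, and Trib3, both induced by ATF4, differed by -0.89 and -0.85, from 13.8 to 13.0 and from 12.9 to 12.1. The lower genes also include Shmt1, whose values of 7.02 and 6.35 lay under the upper quartiles of the neg rows. The aminoacyl-tRNA synthetase list had 21 of 21 named members above the floor, with 3 (14.3%) higher and 3 (14.3%) lower and a median of -0.20. Kars was higher by 0.95 and Farsa by 0.74, and both lie on chromosome 8, while Eprs and Aimp2 differed by -1.13 and -1.01.

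**Figure D4:**
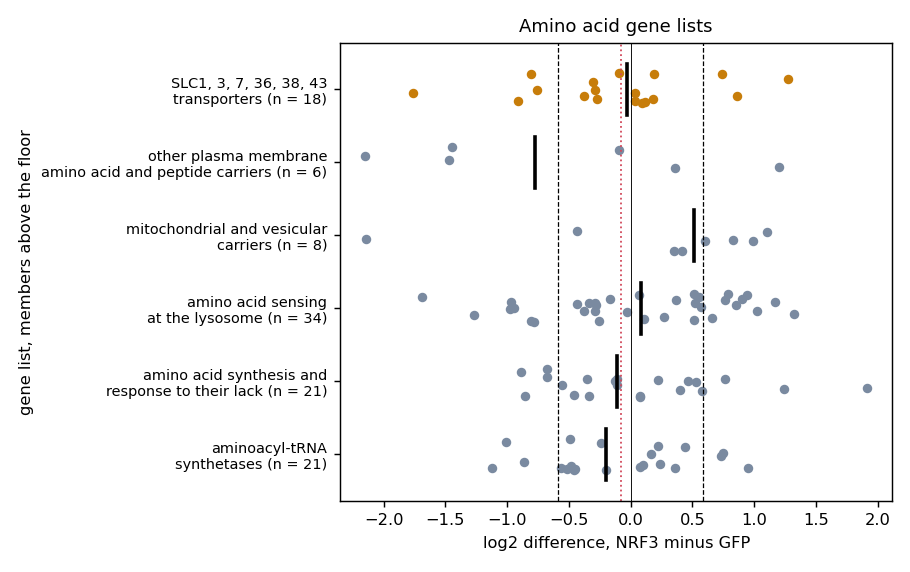
Log2 difference, NRF3 minus GFP, of each gene above the floor in the transporter set (orange, 18 genes) and in 5 lists of other amino acid genes (grey), 1 array per group, with the vertical spread of points drawn at random for legibility. Black bars are list medians, from -0.77 for the other membrane carriers to 0.51 for the mitochondrial and vesicular carriers, the red dotted line is the median of all genes, -0.08, and dashed lines mark 1.5-fold.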

How the data were processed

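Total RNA from 2 B16F10 cell populations was hybridised to 1 single-colour Affymetrix array each, from 100.0 ng of RNA, per the labels' protocols. Each array has 1 log2 value per probe set, made by the authors and deposited, with Affymetrix Expression Console and RMA (per the submitters' processing notes). Their version, background settings and genome build were not given in the sources used here. Some values, 288 on the GFP and 279 on the NRF3 array, exceeded 16, more than a 16-bit scanner can read on the log2 scale, so the scale is not plain log2 brightness. Slc3a2 and Slc38a1 are among these rows on both arrays. The number of arrays limits the precision, and no test was possible.

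Of the 28846 rows, 19572 carried 1 gene symbol, none several, and 9274 are unnamed here. All named rows matched the RefSeq table (GRCm38.p6) by gene number. Where a gene had more than 1 probe set (55 genes), that of the highest mean stood for it. The genes of the set, the lists and the size rules were chosen with earlier results of these data known. All members above the floor are named, as are the 2 top and 2 bottom genes of each list. Alternatives were other floors, median centring, quantile normalization, a lowess trend (span 0.3) subtracted, probe set means, subtraction of the neighbours' median, loss of chromosome 8 and a 2-fold rule. The computation (Python 3.11.15, pandas 2.3.3, statsmodels 0.14.6) was tested on simulated data.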

Additional observations from a re-analysis of the deposited data

How the results depend on the processing

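The 3 higher and 4 lower transporter genes were the same under median centring, quantile normalization, subtraction of the lowess trend, probe set means and the floor on the brighter value. With the floor at the 75th percentile, which kept 11 of them, 3 were higher and 2 lower, and the median was 0.088. Of all 4871 genes kept there, 828 were higher and 1065 lower. Without a floor 5 of 41 transporter genes were higher and 6 lower, beside 2931 and 3171 of all 19505 genes. The 4 genes that this setting added, Slc1a3, Slc1a6, Slc3a1 and Slc38a3, lie below the floor, and their differences are not read. At 2-fold 1 of the 18 transporter genes above the floor was higher and 1 lower. The median of the set was 0.075 after median centring, -0.21 with the neighbours' median subtracted, which left 2 higher and 3 lower genes, and -0.27 without chromosome 8. With the neighbours' median subtracted, 17.1% of all genes were higher and 18.9% lower. That subtraction also turned the sign of Slc38a1 (0.21), Slc7a1 (-0.18), Slc7a5 (-0.53) and Slc7a6 (-0.97), and the last became one of the lower genes. Median centring and quantile normalization moved the median of all genes by 0.10, and of all genes past 1.5-fold 51.1% were higher after quantile normalization, against 40.9%. No paired analysis was possible because each group has 1 array and the labels give no replicate numbers. Array data have no read depth, and the 23 transporter genes below the floor have no usable difference.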

Other observations

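Slc7a7 and Slc7a8, which both lie on chromosome 14, differed in the same direction, by -0.38 and -0.76, and Slc38a1 and Slc38a2, which both lie on chromosome 15, by -0.09 and 0.04. Both values of Slc7a8 lay under the upper quartiles of the neg rows. Of the 324 genes above the floor on chromosome 14, 205 had a difference below 0, beside 5315 of all 9741 genes above the floor. The median difference of all genes above the floor was -0.15 on chromosome 14 and -0.28 on chromosome 15.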
